A study of Homo sapiens with 15 samples.

Results

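The high dose of dimethylamine (HD) was compared with the low dose (LD) in A549 cells, an established line from a human lung adenocarcinoma that keeps features of alveolar epithelium. HD stands for 3 samples exposed to 81.7 ppm of dimethylamine vapour at the air-liquid interface, and LD for 3 samples exposed to 14.9 ppm, which makes 6 of the 15 samples of the series. Both groups received 3 exposures of 1 h, each followed by 23 h of recovery, within 72 h, at a flow of 3 ml/min per cm². The samples were taken by their labels, and all genes of the RT-qPCR panel that gave a product in these samples were considered. The other samples were 3 of a mid dose (MD, 41.1 ppm), 3 under clean air flow (CA) and 3 non-exposed cultures without flow (NEC). Each sample was a pool of 2 wells, and the study calls the 3 samples of a group biological replicates. The comparison asks which genes still change between the lowest and the highest concentration, both of which the study regarded as below cytotoxicity. All HD samples came from exposure plate 6 and all LD samples from plate 1, so no plate held both doses, and dose and plate cannot be told apart within these 6 samples. CA and NEC each had 1 sample on plate 1 and 1 on plate 6, and they gave the only measure of the plate difference. The model is a cell line without the other cell types of the lung, and the panel genes had mostly been selected by the study on the same RNA because they changed at HD, so the counts below do not describe an unselected set of genes.

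Dimethylamine is a volatile, water-soluble base that irritates the airways. In epithelial cells, chemical stress is known to be met by several linked programmes. The integrated stress response slows translation and induces ATF4 and its target CHOP (gene DDIT3), p53 induces genes of cell cycle arrest and repair, and injured epithelium releases EGFR ligands and chemokines and remodels its matrix. A549 cells also express many secreted plasma proteins and alcohol dehydrogenases that are better known from liver.

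The level of a gene is given as the negative ΔCT, the mean threshold cycle (CT) of the normalisation genes GPN1 and TMEM184C minus the CT of the gene. It is on a log2 scale, where a higher level means more RNA and 1 unit is 1 PCR cycle. Levels of different genes were not compared, since assays differ in efficiency. Differences are HD minus LD ± SE from the model over all 15 samples, with n = 3 per group unless another n is given, and a gene was called when its limma adjusted p was under 0.05. Of 296 genes on the panel, 280 were detected in all 6 samples and 284 had at least 2 detected samples in each group and were tested. Each sample had 282 to 286 wells with a product, with CT values between 15.7 and 36.1. The mean CT of the normalisation genes was 25.57, 25.09 and 24.93 in HD, against 25.00, 24.87 and 24.82 in LD, and the first HD sample stood apart by its late wells. Relative to the mean of both, GPN1, a GTPase, differed by 0.09 ± 0.09 (adjusted p = 0.39) and TMEM184C, a membrane protein, by the mirror value of -0.09, which is so by construction. The panel could check the labelled cell type only by KRT18 and CDH1, which were detected in all samples. Markers of alveolar type II cells, fibroblasts and endothelium were not on the panel. The single leukocyte marker, CD79A, lay at 1.41, 1.70 and 1.70 in HD and at 0.80, 1.06 and 1.04 in LD. Its mean CT was 23.59 in HD and 23.93 in LD. It was called at 0.635 ± 0.152 (adjusted p = 0.00264), but not with exposure plate as a further term (0.606, adjusted p = 0.0641). Its part in any result was not tested.

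HD differed from LD in most of the panel. With 180 genes called (63.4% of those tested), 110 were higher in HD (38.7%) and 70 lower (24.6%). At least a 2-fold change was reached by 39 of the genes called higher and by 19 of those called lower. The HD and LD samples did not overlap in 202 genes (71.1%), and the median difference over all 284 genes was 0.16. The largest rises were in the TNF receptor family member TNFRSF9, the muscle-type ankyrin repeat protein ANKRD1 and the chemokine CCL20. These were 15.6-fold, 8.12-fold and 8.07-fold higher in HD. The wells of TNFRSF9 were late in LD, at a mean CT of 33.19. Its mean level was -8.29 in LD and -6.83 in NEC. The largest falls were in the protease inhibitor PZP, the receptor OR51E1 and fibronectin, FN1, which were 4.62-fold, 3.67-fold and 3.27-fold lower. The MD mean lay between the HD and LD means in 154 of the 180 called genes (85.6%) and in 33 of the 104 other genes. A gene is called for a wide gap between HD and LD, and a wide gap alone makes an MD mean between them more likely. The contrast of these counts is therefore not a test of a dose course. Without the normalisation genes 132 genes were called (46.5%), with 51 higher and 81 lower, the later wells of HD then entering as lower levels, and the median over all genes was -0.14. Of the 180 calls, 121 stood in the same direction under that setting. No called gene changed its direction, but the setting lowers the differences of most genes by the same amount. Their falls could thus not turn.

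**Figure D1:**
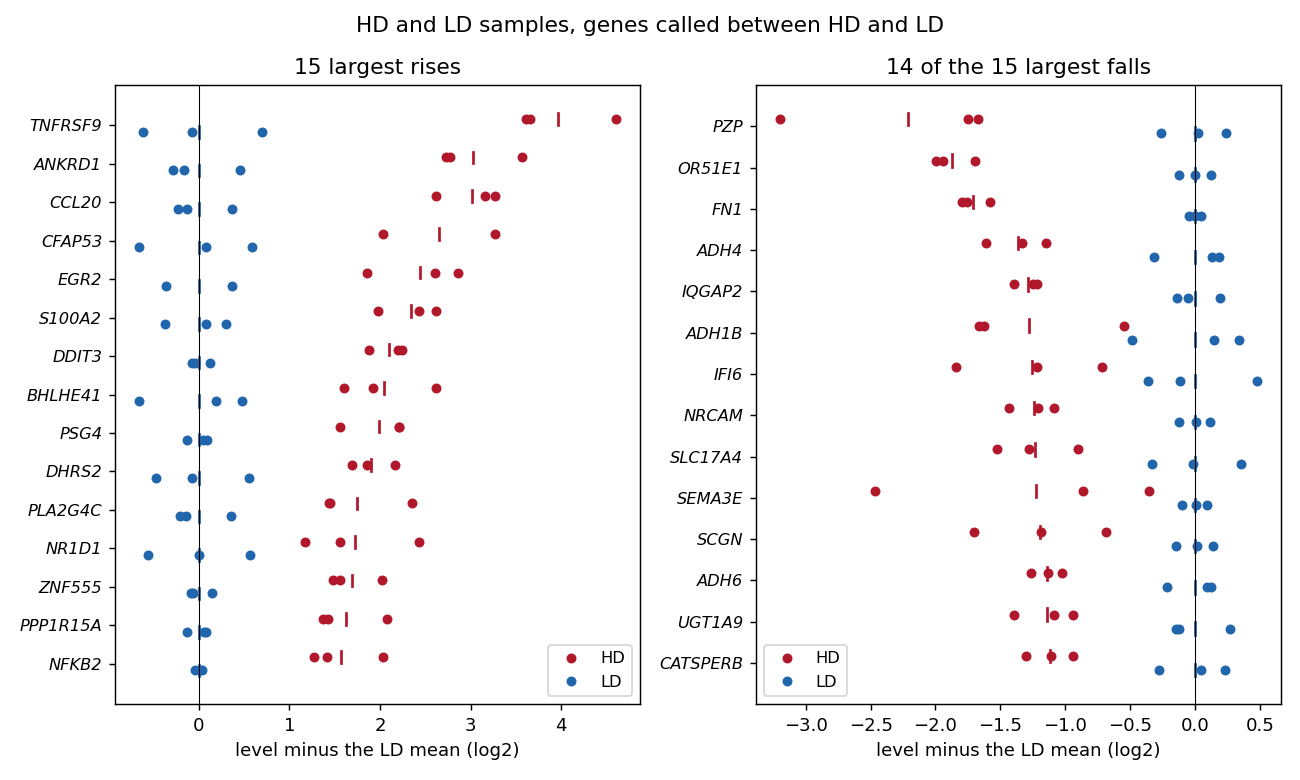
Levels of the 15 genes with the largest rises (left) and of 14 among the 15 with the largest falls (right) of those called, each relative to the LD mean of the gene (log2, horizontal axis). Points are single samples, HD in red above LD in blue, and short bars are group means. TNFRSF9 has the largest rise with 3.96, PZP has the largest fall with -2.21, and HD and LD samples overlap in none of the genes drawn.

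The plates differed by themselves. In CA and NEC, 39 of 280 genes were called between plate 6 and plate 1 (13.9%). With plate as a block in the model, 101 genes were called between HD and LD (35.6%), and 89 of them were among the 180. Of these, 52 were higher in HD and 37 lower. CCL20 had the largest plate difference among the 15 largest rises, as far as these could be tested between plates. Its levels were -1.84, -1.19 and -1.30 in HD and -4.59, -4.69 and -4.10 in LD. Its level in the controls was higher by 1.79 on plate 6 than on plate 1, and with plate as a block its difference was 1.22 (adjusted p = 0.0688) in place of 3.01 ± 0.59 (adjusted p = 7.98e-04). EGR2, an immediate early transcription factor, lay at -4.10, -4.85 and -3.85 in HD and at -7.07 and -6.34 in the pair of LD samples in which it was detected. Its difference of 2.44 ± 0.62 (adjusted p = 0.00431) was 1.03 with plate as a block (adjusted p = 0.161), and its controls were higher on plate 6 by 1.41. For TNFRSF9 the block gave 4.11 ± 1.55 (adjusted p = 0.0634). The block also changed the SE, from 0.24 to 0.37 for DDIT3 and from 0.59 to 0.49 for CCL20. A call lost with the block therefore does not by itself show a smaller difference. Neither ANKRD1, DDIT3, BHLHE41 nor FN1 lost its call.

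**Figure D2:**
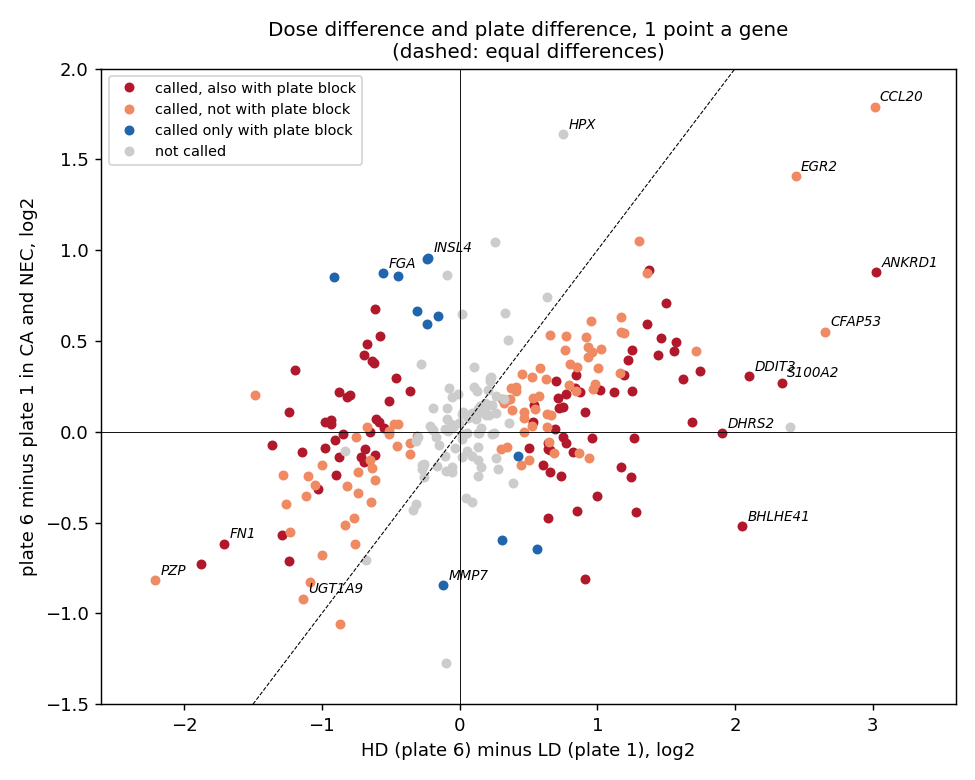
HD minus LD (horizontal axis, log2) against plate 6 minus plate 1 in the CA and NEC samples (vertical axis, log2), with 1 point per gene and the colours for the calls with and without plate as a block. CCL20 and EGR2 combine a large dose difference with plate differences of 1.79 and 1.41, whereas DHRS2 and BHLHE41 lie at -0.01 and -0.52. Genes that could not be tested between plates, TNFRSF9 and PSG4 among them, are not drawn.

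Genes of the integrated stress response rose, 4 of 4, with a median of 1.54, beside 38.7% called higher over all genes tested. DDIT3, which encodes the transcription factor CHOP, lay at 2.60, 2.23 and 2.55 in HD and at 0.48, 0.28 and 0.31 in LD. The narrow LD samples were far below HD, and the difference was 2.10 ± 0.24 (4.30-fold, adjusted p = 2.63e-05). PPP1R15A, the regulatory subunit that directs a phosphatase to eIF2α, lay at 0.67, 0.73 and 1.38 in HD and at -0.64, -0.62 and -0.83 in LD (difference 1.62 ± 0.22, adjusted p = 1.03e-04). CHAC1, an enzyme that degrades glutathione, lay at -2.12, -2.03 and -2.33 in HD and at -3.55, -3.92 and -3.40 in LD (difference 1.46 ± 0.21, adjusted p = 1.27e-04). For the stress cytokine GDF15 the difference was 1.36 ± 0.27 (adjusted p = 8.40e-04), but its control level was higher by 0.87 on plate 6, and with plate as a block the difference was 0.49 (adjusted p = 0.0861). The other members kept their calls with the block, beside 56 of all 284 genes called higher in that model.

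The core of the element bound by ATF4 and CHOP, TGATGNAA on either strand, was looked up in the promoters of these genes, here 250 bases before to 50 after the start as given by RefSeq (GRCh38.p14). It occurred in 1 of the 4 promoters and in 3.67% of all 27305. The match was in CHAC1, from 209 to 202 bases before the start, within chr15:40953232-40953299 (plus strand). It is shown in capitals because it matches this core on the reverse strand, and binding was not tested. The absence of these letters elsewhere concerns only this window.
CHAC1: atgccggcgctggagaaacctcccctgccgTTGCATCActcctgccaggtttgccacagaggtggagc

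All 4 p53 target genes were higher in HD, with a median of 1.02, beside 38.7% called higher over all genes. The nuclease gene AEN rose by 1.22 ± 0.18 (adjusted p = 1.49e-04) and GADD45A, a regulator of growth arrest, by 1.19 ± 0.17 (adjusted p = 1.27e-04). FAS, a death receptor, lay at 1.04, 0.95 and 0.69 in HD and at -0.09, 0.08 and 0.14 in LD (adjusted p = 0.00145). The change of MDM2, the ubiquitin ligase that restrains p53, was smaller (0.62 ± 0.15, adjusted p = 0.00268), and its call ended with plate as a block (0.33, adjusted p = 0.229).

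Of the 7 EGFR ligands and MAPK response genes, 6 rose, beside 38.7% over all genes, and the list median was 1.30. AREG, which encodes the EGFR ligand amphiregulin, lay at 1.66, 1.44 and 1.28 in HD and at -0.18, -0.28 and 0.17 in LD. Its difference was 1.56 ± 0.21 (2.95-fold, adjusted p = 1.03e-04). A second ligand, EREG (epiregulin), differed by 1.19 ± 0.23 (adjusted p = 5.65e-04) and PHLDA1, a gene induced by growth factors, by 1.36 ± 0.21 (adjusted p = 2.10e-04). DUSP6, the phosphatase that is induced by ERK and inactivates it, differed by 1.30 ± 0.34 (adjusted p = 0.00476), while its controls were higher by 1.05 on plate 6. EMP1, an epithelial membrane protein, differed by 0.77 ± 0.23 (adjusted p = 0.0111). In the blocked model only AREG and PHLDA1 of this list were called, at 1.11 and 0.77, beside 56 of all 284 genes called higher. HMGA1, a chromatin protein, was at -4.22, -4.05 and -3.23 in HD and at -3.59, -3.69 and -3.73 in LD, with overlapping samples and a difference of -0.16 ± 0.24 (adjusted p = 0.552).

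The NF-kB and chemokine genes moved apart. TNFRSF9, a co-stimulatory receptor known from T cells, lay at -4.63, -4.68 and -3.69 in HD and at -8.37, -7.59 and -8.91 in LD (difference 3.96 ± 0.81, adjusted p = 0.00123). NFKB2, the precursor of the p52 subunit, lay at -0.53, -0.40 and 0.23 in HD and at -1.79, -1.85 and -1.77 in LD (1.57 ± 0.25, adjusted p = 2.19e-04), and it was the only gene of the list called with plate as a block (1.08, adjusted p = 0.0129). The apoptosis inhibitor BIRC3 differed by 0.96 ± 0.17 (adjusted p = 3.20e-04). Against this direction IL33, an alarmin cytokine of epithelium, lay at -0.81, -0.60 and -0.88 in HD and at 0.77, 0.29 and -0.37 in LD, a fall of 1.00 ± 0.21 (adjusted p = 0.00141; with the block -0.82, adjusted p = 0.0887). CXCL5, a neutrophil chemokine, had a difference of 0.22 ± 0.15 (adjusted p = 0.215). With IL1RL1 left untested, 4 of 6 members rose, 1 fell, and the median was 1.27. Over all genes tested 38.7% were called higher and 24.6% lower. With plate as a block these were 56 and 45 of 284 genes.

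IL1RL1 and AMHR2 had too few LD samples for a test. IL1RL1, the receptor for IL33, reached the threshold at CT 28.78, 28.00 and 27.80 in HD. In LD it gave a product in 1 sample only, at CT 31.88. AMHR2, a receptor of the TGF-beta family known from reproductive tissue, had CT 31.51, 32.30 and 31.20 in HD and 34.57 in the single LD sample with a product. Both were thus detected in 3 of 3 HD samples and in 1 of 3 LD samples. AMHR2 was not detected in CA or NEC, and IL1RL1 only in the CA sample of plate 6, at CT 31.55.

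Of the targets of YAP and TGF-beta, 4 of 4 were higher in HD, beside 38.7% over all genes, with a median of 1.05. ANKRD1, a YAP target, lay at -1.72, -1.68 and -0.88 in HD and at -4.62, -3.99 and -4.74 in LD (difference 3.02 ± 0.35, adjusted p = 2.88e-05). The receptor tyrosine kinase AXL lay at -0.20, -0.07 and 0.45 in HD and at -0.96, -1.32 and -1.06 in LD, and its difference of 1.17 ± 0.20 (adjusted p = 3.02e-04) was 1.37 with plate as a block. Smooth muscle actin, ACTA2, differed by 0.93 ± 0.20 (adjusted p = 0.00136), and its second assay gave 0.80. With the block ACTA2 was at 0.52 (adjusted p = 0.106). SERPINE2, a secreted inhibitor of thrombin and other proteases, differed by 0.72 ± 0.13 (adjusted p = 4.39e-04).

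TEAD factors, through which YAP acts, bind the core CATTCC. On either strand it was present in 1 of the 4 promoters of this list and in 14% of all promoters of the same length. ANKRD1 held it at 2 positions, both reading GGAATG on the strand of the gene, and the surroundings are printed with the core in capitals, the first from chr10:90921272-90921337 and the second from chr10:90921180-90921245 (GRCh38.p14, RefSeq, minus strand). The cores start 220 and 128 bases before the start of the gene.
ANKRD1, first: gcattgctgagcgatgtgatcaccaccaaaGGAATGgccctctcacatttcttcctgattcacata
ANKRD1, second: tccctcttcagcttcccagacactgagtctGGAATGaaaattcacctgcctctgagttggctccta

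Among the matrix genes, the basement membrane components rose while fibronectin fell. FN1 lay at 2.23, 2.27 and 2.44 in HD and at 4.07, 4.03 and 3.98 in LD, a difference of -1.71 ± 0.19 (adjusted p = 2.21e-05) that was -1.09 with plate as a block (adjusted p = 0.00144). LAMA3, a chain of laminin-332, differed by 0.93 ± 0.18 (adjusted p = 8.09e-04). The hemidesmosomal collagen COL17A1 differed by 0.65 ± 0.14 (adjusted p = 0.00148) and LOXL2, an enzyme that cross-links collagen, by 1.02 ± 0.20 (adjusted p = 8.09e-04). LAMA3 and LOXL2 lost their calls with the block. MMP7, a secreted protease, overlapped between the groups with 2.60, 2.37 and 2.21 in HD and 2.56, 2.36 and 2.62 in LD (-0.12 ± 0.23, adjusted p = 0.649). Its controls were lower by 0.84 on plate 6 (plate difference -0.84), and with plate as a block the difference was 0.72 (adjusted p = 0.02).

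Of the 8 S100, keratin and EMP genes, 6 were higher in HD (median 0.75), beside 38.7% over all genes. S100A2, a calcium-binding protein of stratified epithelium, lay at -3.45, -4.09 and -3.63 in HD and at -6.44, -5.99 and -5.76 in LD. Its difference of 2.34 ± 0.34 (5.06-fold, adjusted p = 1.27e-04) was the largest of the list. EMP3, a membrane protein related to EMP1, lay at 2.57, 2.53 and 2.62 in HD and at 1.84, 1.70 and 1.92 in LD (0.75 ± 0.09, adjusted p = 5.02e-05). S100A6 lay at 9.30, 8.92 and 9.22 in HD and at 8.23, 8.39 and 8.05 in LD (0.92 ± 0.20, adjusted p = 0.00146), but at 0.40 with plate as a block (adjusted p = 0.211). S100A11 overlapped between the groups (0.27 ± 0.13, adjusted p = 0.0823), and without the first LD sample it was called at 0.36 (adjusted p = 0.0378). KRT18, the simple epithelial keratin, differed by 0.21 ± 0.11 (adjusted p = 0.116). With the block 3 genes of this list were called, S100A2, EMP3 and KRT80, beside 56 of all 284 genes called higher.

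Cytoskeletal genes also changed. The α-tubulin TUBA4A lay at 2.02, 2.21 and 2.18 in HD and at 1.09, 0.67 and 0.85 in LD (1.26 ± 0.12, adjusted p = 2.15e-05), and TUBA1C, another α-tubulin, differed by 0.96 ± 0.10 (adjusted p = 2.21e-05). Both were almost unaffected by the plates, with block values of 1.30 and 0.99. DCLK1, a microtubule-binding kinase, lay at -2.87, -2.52 and -2.43 in HD and at -3.96, -3.60 and -3.08 in LD (0.94 ± 0.24, adjusted p = 0.00435). With the block its difference was larger but had a wider SE (1.09 ± 0.40, adjusted p = 0.0557). TPPP3, a tubulin-polymerising protein known from ciliated cells, fell (-0.80 ± 0.20, adjusted p = 0.003). CFAP53, a component of motile cilia, had in contrast levels of -5.17 and -3.93 in the pair of HD samples with a product and of -7.13, -7.87 and -6.62 in LD. It was called at 2.65 ± 0.69 (adjusted p = 0.00526), was at 2.10 with the block (adjusted p = 0.139), and was not testable without either of those HD samples. The wells of CFAP53 were late in LD, at a mean CT of 32.10.

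Several transcriptional regulators and enzymes without a common pathway were also among the large rises. ZNF555, a zinc finger gene, lay at -0.84, -0.92 and -0.38 in HD and at -2.25, -2.46 and -2.48 in LD. With 1.69 ± 0.15 it had the smallest adjusted p of the panel (1.04e-05), and with plate as a block it was at 1.63. The circadian repressor BHLHE41 lay at -1.94, -2.27 and -1.25 in HD and at -3.40, -3.68 and -4.53 in LD (2.05 ± 0.33, adjusted p = 2.43e-04; with the block 2.57). NR1D1, the clock repressor REV-ERBα, differed by 1.72 ± 0.33 (adjusted p = 5.59e-04), which was 1.28 with the block (adjusted p = 0.0731). The short-chain dehydrogenase DHRS2 lay at -3.06, -3.23 and -2.75 in HD and at -5.39, -4.99 and -4.36 in LD (1.91 ± 0.29, adjusted p = 1.76e-04; with the block 1.92). DHRS9, which oxidises retinol, differed by 1.24 ± 0.21 (adjusted p = 3.20e-04), and the phospholipase PLA2G4C by 1.74 ± 0.24 (adjusted p = 1.03e-04). TNFRSF12A, the receptor for TWEAK, lay at 1.15, 1.05 and 1.41 in HD and at -0.29, -0.32 and -0.28 in LD (1.50 ± 0.22, adjusted p = 1.28e-04). The pregnancy glycoprotein gene PSG4 lay at -5.56, -4.92 and -4.92 in HD and at -7.26, -7.08 and -7.03 in LD (1.99 ± 0.42, adjusted p = 0.00141), yet with the block at 0.74 (adjusted p = 0.409). Its wells were late in LD, at a mean CT of 32.02.

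**Figure D3:**
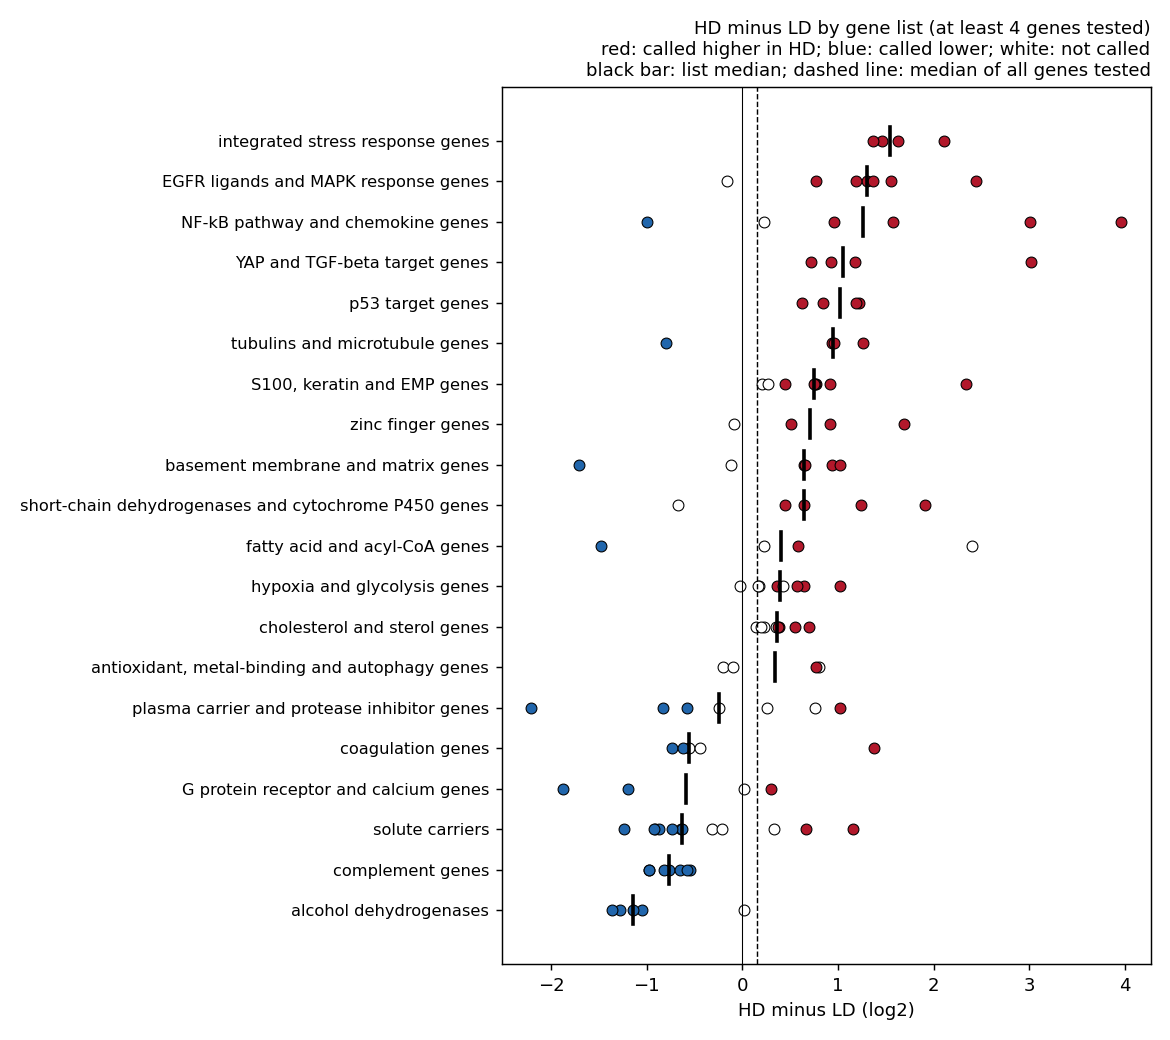
HD minus LD (log2, horizontal axis) for each gene of the lists with at least 4 tested genes, ordered by list median (black bar). Filled points were called (red higher in HD, blue lower), white points were not, and the dashed line is the median of all 284 genes at 0.16. The medians run between 1.54 for the integrated stress response genes and -1.14 for the alcohol dehydrogenases.

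Among the genes that fell, the alcohol dehydrogenases had the lowest median (-1.14), with 4 of 5 lower in HD, beside 24.6% over all genes. These enzymes oxidise alcohols to aldehydes and are best known from liver. ADH4 lay at -2.75, -3.03 and -2.56 in HD and at -1.23, -1.28 and -1.73 in LD (-1.36 ± 0.15, adjusted p = 2.42e-05). ADH6 lay at -0.90, -1.14 and -1.01 in HD and at 0.25, 0.22 and -0.09 in LD (-1.14 ± 0.12, adjusted p = 2.20e-05). Both kept their calls with plate as a block, at -1.29 and -1.03. ADH1C differed by -1.05 ± 0.19 (adjusted p = 4.14e-04) and ADH1B by -1.28 ± 0.32 (adjusted p = 0.00375), and with the block they were at -0.75 (adjusted p = 0.0641) and -1.04 (adjusted p = 0.146). ADH1A was near the detection limit, with levels of -7.66, -7.51 and -6.30 in HD and -7.98, -6.49 and -7.05 in LD, and its difference of 0.01 ± 0.75 (adjusted p = 0.989) had too wide an error to be compared with the others. The ADH1 genes are close paralogs, and cross-reaction of their assays was not examined.

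The 7 genes of the complement list fell, with no overlap between HD and LD samples and a median of -0.76, beside 24.6% lower and 71.1% without overlap over all genes. The list does not hold every complement-related gene of the panel, and 1 outside it was at 0.09 ± 0.31 (adjusted p = 0.8) with overlapping samples. C5, the component that is split to start the terminal pathway, lay at -0.81, -0.51 and -0.26 in HD and at 0.57, 0.57 and 0.22 in LD (-0.98 ± 0.16, 1.97-fold lower, adjusted p = 2.43e-04). The regulator C4BPA lay at -1.06, -1.32 and -1.55 in HD and at -0.23, -0.35 and -0.42 in LD (-0.98 ± 0.14, adjusted p = 1.27e-04). The other differences ran between -0.82 ± 0.14 for the protease C1S (adjusted p = 3.02e-04) and -0.55 ± 0.12 for factor B, CFB (adjusted p = 0.00167). In the plate-blocked model 4 of the 7 were called, C4BPA, C5, CFB and the inhibitor CFI, at -1.03, -0.89, -0.57 and -0.64. Over all 284 genes, 45 were called lower in that model. C1R and C1S were at -0.29 and -0.52 with adjusted p of 0.405 and 0.064.

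The differences of the fibrinogen chains changed with the plate term. Fibrinogen is built from the products of FGA, FGB and FGG and is cleaved to fibrin in clotting. FGA lay at 3.74, 3.57 and 3.66 in HD and at 4.44, 4.36 and 3.84 in LD, lower in every HD sample, with a difference of -0.55 ± 0.26 that was not called (adjusted p = 0.0779). FGG differed by -0.44 ± 0.26 (adjusted p = 0.158), and FGB by -0.62 ± 0.22 (adjusted p = 0.0282). The third LD sample was the lowest LD sample in all 3 chains. In the controls the chains were higher on plate 6 by 0.87, 0.68 and 0.86 for FGA, FGB and FGG, against the direction of the dose difference. In the blocked model the differences were -1.43 (adjusted p = 0.00156), -1.29 (adjusted p = 0.00263) and -1.30 (adjusted p = 0.00196). The call of FGA was reached without the third LD sample (-0.74, adjusted p = 0.0346), and that of FGB was lost without the first HD (-0.62, adjusted p = 0.0565), second HD (-0.55, adjusted p = 0.0844), first LD (-0.50, adjusted p = 0.097) or second LD sample (-0.55, adjusted p = 0.0868). Coagulation factor V, F5, fell by 0.73 ± 0.12 (difference -0.73, adjusted p = 2.97e-04; with the block -0.40, adjusted p = 0.0688). TFPI2, an inhibitor of serine proteases deposited in the matrix, lay in the opposite direction at 4.83, 4.71 and 4.70 in HD and 3.41, 3.26 and 3.45 in LD (1.37 ± 0.25, adjusted p = 4.84e-04; with the block 0.48, adjusted p = 0.0205).

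Plasma carriers and protease inhibitors did not move as a group. PZP, a relative of α2-macroglobulin, lay at -7.12, -5.59 and -5.67 in HD and at -4.18, -3.67 and -3.90 in LD (-2.21 ± 0.38, adjusted p = 3.02e-04; with the block -1.39, adjusted p = 0.0703). ITIH2, a protein that binds hyaluronan, and APOH, a phospholipid-binding protein, fell by 0.58 and 0.83 (differences of -0.58 ± 0.17 and -0.83 ± 0.18). The call of APOH ended with the block (-0.32, adjusted p = 0.271). SPINK1, a trypsin inhibitor, rose by 1.02 ± 0.15 (adjusted p = 1.53e-04). Albumin, ALB, lay at -4.33, -5.02 and -4.76 in HD and at -4.27, -4.34 and -4.77 in LD, with overlap (-0.24 ± 0.24, adjusted p = 0.392), and was called only with the block (-0.84, adjusted p = 0.0462). For HPX, the haem carrier, the difference of 0.75 ± 0.51 (adjusted p = 0.215) was -0.89 with the block (adjusted p = 0.219), and its controls were higher by 1.64 on plate 6.

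Both epithelial junction genes were lower in HD, beside 24.6% called lower over all genes. CDH1, E-cadherin of the adherens junction, lay at 0.40, 0.46 and 0.67 in HD and at 1.34, 1.21 and 1.06 in LD (-0.69 ± 0.11, adjusted p = 2.48e-04). CLDN2, a claudin that forms paracellular cation pores, lay at 3.24, 2.96 and 3.12 in HD and at 3.87, 3.86 and 3.66 in LD (-0.69 ± 0.10, adjusted p = 1.35e-04). Both calls stood with plate as a block, at -0.53 and -0.60, beside 45 of all 284 genes called lower in that model. Of the 12 solute carriers, 6 fell and 2 rose (median -0.64), beside 24.6% lower, 38.7% higher and 63.4% called over all genes. SLC23A1, a vitamin C transporter, lay at -0.70, -0.55 and -0.62 in HD and at 0.53, 0.37 and 0.02 in LD (-0.93 ± 0.13, adjusted p = 1.03e-04), and SLC17A4, a transporter of organic anions, differed by -1.24 ± 0.20 (adjusted p = 2.43e-04). SLC6A17, a transporter of neutral amino acids known from neurons, rose by 1.16 ± 0.21 (adjusted p = 4.22e-04; with the block 0.84, adjusted p = 0.064). OR51E1, an olfactory-type receptor that is also expressed outside the nose, lay at -3.60, -3.54 and -3.30 in HD and at -1.73, -1.48 and -1.60 in LD (-1.88 ± 0.22, adjusted p = 2.88e-05; with the block -1.15). SCGN, a calcium-binding protein of endocrine cells, fell by 1.19 ± 0.22 (difference -1.19, adjusted p = 4.99e-04; with the block -1.53).

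Interferon-induced genes were uneven. IFI6 lay at -0.77, -0.15 and 0.35 in HD and at 0.71, 1.54 and 0.95 in LD (-1.26 ± 0.38, adjusted p = 0.0107). Its call was lost without the first HD sample (-0.97, adjusted p = 0.0544), without the second LD sample (-1.02, adjusted p = 0.0503) and with plate as a block (-0.86, adjusted p = 0.299). IFIT1 differed by -0.83 ± 0.41 (adjusted p = 0.0888), and without the third LD sample it was called at -1.12 (adjusted p = 0.0397).

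Lipid and glucose metabolism separated HD from LD less than the stress genes did by their medians. Of the 8 cholesterol and sterol genes, 4 were called higher (median 0.36), near the 38.7% over all genes tested. EBP, a sterol isomerase, lay at 4.14, 4.20 and 4.18 in HD and at 3.54, 3.40 and 3.48 in LD (0.70 ± 0.13, adjusted p = 4.89e-04; with the block 0.42, adjusted p = 0.0439). MVD, the decarboxylase of the mevalonate pathway, differed by 0.55 ± 0.18 (adjusted p = 0.015; 0.45 without the third HD sample, adjusted p = 0.0613). FDPS, which makes farnesyl diphosphate, differed by 0.38 ± 0.13 (adjusted p = 0.0248), and INSIG1, which retains the sterol sensor SCAP in the endoplasmic reticulum, by 0.37 ± 0.14 (adjusted p = 0.0287). The calls of FDPS and INSIG1 were lost when any of several single samples was left out. FDPS was not called without the second HD (0.32), the third HD (0.31), second LD (0.36) or the third LD sample (0.36), and INSIG1 not without the first HD (0.30), second HD (0.37), second LD (0.32) or the third LD sample (0.36). The count of the list was then 2 without the second or the third HD or the second or the third LD sample. In the blocked model only EBP was called and the list median was 0.14, and without normalisation genes none was called. Over all 284 genes, 56 and 51 were called higher in these settings. With the median CT in place of the normalisation genes 6 were called higher, beside 118 of all 284 genes.

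FASN, the fatty acid synthase, had a single discordant well. It lay at 3.58, 3.58 and 3.76 in HD and at -3.11, 3.36 and 3.49 in LD. The first LD sample was late by more than 6 cycles against the other LD samples, and the difference of 2.40 ± 1.21 was not called (adjusted p = 0.101). Without that sample it was 0.22 (adjusted p = 0.0913), whereas without the second or the third LD sample it was called at 3.45 (adjusted p = 0.0298) and 3.52 (adjusted p = 0.0245).

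Of the 8 hypoxia and glycolysis genes 4 were called higher, with a median of 0.39, near the share of 38.7% over all genes. None of these 4 calls stood with plate as a block, beside 56 of all 284 genes called higher in that model. LOXL2 was then at 0.57 (adjusted p = 0.136), ARRDC4 at 0.71 (adjusted p = 0.2) and ALDOC at 0.18 (adjusted p = 0.582). The single blocked call was PFKFB4, a regulator of glycolysis, at 0.56 (adjusted p = 0.0242) against 0.42 without the block (adjusted p = 0.0549). PFKP, a phosphofructokinase, differed by 0.57 ± 0.13 (adjusted p = 0.00151; with the block 0.38, adjusted p = 0.144), and ALDOC, an aldolase, by 0.36 ± 0.15 (adjusted p = 0.0481). ALDOC lost its call without the second HD (0.34), the third HD (0.24), first LD (0.30) or the third LD sample (0.34). The arrestin-domain gene ARRDC4 was called at 0.65 ± 0.25 (adjusted p = 0.0338), but was at 0.31 without the third HD sample (adjusted p = 0.162), 0.63 without the second LD sample and 0.61 without the third LD sample. The count of the list was 2 without the third HD or the third LD sample. Of the 4 antioxidant, metal-binding and autophagy genes only SQSTM1, the autophagy receptor p62, was called, beside 63.4% over all genes. It lay at 6.21, 6.36 and 6.53 in HD and at 5.55, 5.61 and 5.61 in LD (0.77 ± 0.13, adjusted p = 2.43e-04; with the block 0.57).

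The position of LD relative to CA differed between genes, as the levels in all samples show. HD minus LD and LD minus CA share the LD samples and are therefore given side by side only. LD minus CA had no plate term, with LD on plate 1 and CA on plates 1, 5 and 6. DDIT3 (mean level 0.78 in MD, 2.46 in HD) was at 2.10 for HD minus LD and at 0.06 for LD minus CA. BHLHE41 was at 2.05 and 0.11, and its MD mean of -3.83 was close to the LD mean of -3.87. FN1 was at -1.71 and -0.14, with MD at 2.83. In these genes the LD mean was near the CA mean, and the part of the plates in this was not tested. INSL4, a relaxin-family hormone gene known from placenta, was at -0.23 for HD minus LD (adjusted p = 0.523) and at -1.07 for LD minus CA (adjusted p = 0.047). HES1, a repressor downstream of Notch, was at -0.31 (adjusted p = 0.242) and -0.94 (adjusted p = 0.037). With plate as a block, however, HD minus LD was -1.19 for INSL4 (adjusted p = 0.00263) and -0.97 for HES1 (adjusted p = 0.00379). Both genes were higher on plate 6 in the controls, by 0.96 and 0.66, and this plate difference also enters LD minus CA. In EMP3 and ADH6 both differences had the same sign. For EMP3 they were 0.75 for HD minus LD and 0.61 for LD minus CA (adjusted p = 0.0052), and for ADH6 -1.14 and -0.56 (adjusted p = 0.03). The mean level of EMP3 was 0.18 in NEC, 1.21 in CA, 1.82 in LD, 2.47 in MD and 2.57 in HD. Its HD minus MD difference was 0.11 (adjusted p = 0.423).

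**Figure D4:**
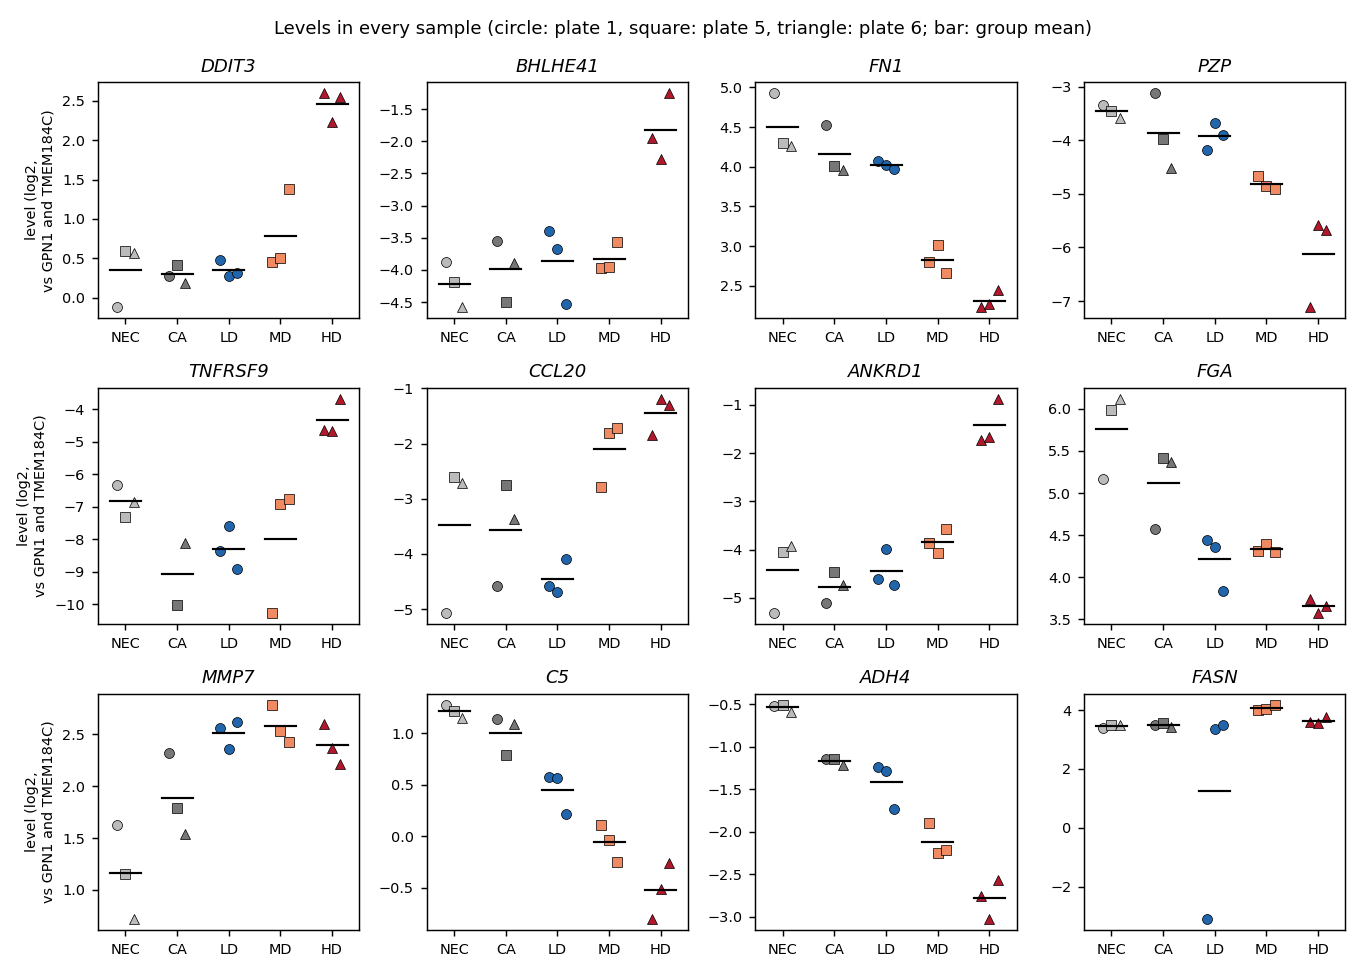
Levels of 12 genes (log2, vertical axis, relative to GPN1 and TMEM184C) in every sample of NEC, CA, LD, MD and HD. Symbols give the exposure plate (circle plate 1, square plate 5, triangle plate 6) and bars the group mean. DDIT3 and BHLHE41 are highest in HD, C5 and ADH4 decline with dose, CCL20 and FGA are lowest on plate 1 among the controls, and 1 LD sample of FASN lies at -3.11.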

How the data were processed

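Per the labels, the 15 samples are RNA of A549 cells in 5 groups of 3, each with its exposure plate. Complementary DNA was run on customised RT2 Profiler PCR arrays (Qiagen) on a ViiA7 instrument according to the study's methods. Of the deposited files, a first matrix gives the threshold cycle of each well, with "nd" where no product was found. In a second deposited matrix the authors gave log2 values, the ΔCT against the mean CT of GPN1 and TMEM184C, in which 10 wells above CT 35 had been set to 35 and 25 nd wells had been filled. The third table holds the authors' fold changes against CA and was not used. An array gives no read depth, and the number of samples and a CT near 35 limit the precision.

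The sign of the second matrix was turned, nd wells were taken as missing, and ACTA2 was read from the first of its 2 assays. All 15 samples entered a linear model with a mean for each group in limma 3.58.1 in R 4.3.3, which moderates the linear model on normalised CT that the study's methods name. Genes with at least 2 detected samples in both groups were tested two-sided, and p-values were adjusted by Benjamini-Hochberg over all 284 tested genes. The script was tested on simulated data. P-values measure the spread between samples, those of a dose sharing 1 plate. The median SD between replicates was 0.18 in HD and 0.15 in LD, and HD replicates correlated across genes with r of 0.99 to 0.994 and LD replicates with r of 0.983 to 0.993. Plate as a block was a further term over the 15 samples, estimated from CA and NEC. Alternatives concerned normalisation, late and nd wells, the samples in the fit, moderation, a replicate block and leaving out each sample.

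The comparison, the gene lists and the rule for named genes were chosen with earlier results of these data known. The rule took the 15 largest rises and 15 largest falls called, up to 4 members per list with the smallest adjusted p, the normalisation genes, 6 called genes with the largest differences whose call ended with plate as a block, genes with nd wells in HD or LD, and a few genes that the study's text names (FN1, EMP1, HMGA1, IL1RL1, DCLK1, S100A11, S100A6). Not every gene it takes is printed, and some are not reported here. TNFRSF12A, KLF6, MAFF, BEX2, CDCP1 and further list members were added after their values were seen. Python 3.11.15 and matplotlib 3.10.9 drew the figures.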

Additional observations from a re-analysis of the deposited data

How the results depend on the processing

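With plate as a block 101 genes were called between HD and LD (56 higher in HD, 45 lower), in place of 180 (110 and 70), and an added setting, chosen after seeing the data, with plate as a block and without the first HD sample gave 105 (64 and 41). Without normalisation genes 51 genes were called higher in HD and 81 lower. Leaving out each HD or LD sample in turn gave 158 to 174 calls, 96 to 105 of them higher in HD and 59 to 73 lower, and 142 of the 180 calls stood in all 6 of these fits. CFAP53 and EGR2 could not be tested where a sample left out leaves 1 with a product. GPN1 alone gave 160 calls, TMEM184C alone 199 and the median CT 189. Replicate numbers shared by HD and LD did not pair the samples (correlations of deviations of 0.13, -0.16 and 0.02), and the replicate block over the LD, MD and HD samples gave 181 calls. Among the genes named it called FGA, FGG and PFKFB4 and lost ARRDC4 and ALDOC.

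Of the 180 called genes 1 turned its direction with plate as a block, TGM3, a transglutaminase named here after its values were seen (-0.869, adjusted p = 0.0323, against 0.189, adjusted p = 0.722, and 0.028 without the first HD sample in that model). Its call was also lost, at -0.889 to -0.688, without any HD or LD sample but the first HD sample. Among the genes named, the other turns were in genes that were not called. In the plate-blocked model HMGA1 was at 0.022, HPX at -0.886, CXCL5 at -0.072, KRT18 at -0.021 and MMP7 at 0.723, and without the first HD sample in that model HMGA1 was at 0.217, HPX at -1.083, CXCL5 at -0.128 and MMP7 at 0.618. Without normalisation genes GPN1 was at -0.210, S100A11 at -0.034, CXCL5 at -0.078, KRT18 at -0.093 and ADH1A at -0.287, and with GPN1 alone ADH1A was at -0.077. With each HD or LD sample left out in turn, HMGA1 ran between -0.464 and 0.030, being above 0 without the first HD sample only, and ADH1A between -0.414 and 0.357, being below 0 without the third HD or the first LD sample. The cause of these changes was not tested. The controls differed between plates 6 and 1 in 39 genes, in 34 without normalisation genes and in 41 with the median CT.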

Other observations

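Genes outside the lists also separated the doses. KLF6, a zinc finger transcription factor induced by injury, lay at 0.77, 0.73 and 1.27 in HD and at -0.43, -0.44 and -0.69 in LD (1.44 ± 0.26, adjusted p = 4.66e-04; with plate as a block 1.02, adjusted p = 0.0235). MAFF, a small MAF transcription factor, differed by 1.25 ± 0.20 (adjusted p = 2.43e-04), and BEX2, a brain-expressed X-linked protein, by 1.12 ± 0.12 (adjusted p = 2.20e-05). The transmembrane protein CDCP1, a substrate of SRC kinases, lay at -2.76, -2.49 and -2.35 in HD and at -3.83, -3.79 and -3.83 in LD, and its difference of 1.28 ± 0.29 (adjusted p = 0.00172) was 1.73 with the block (adjusted p = 0.00367). All 4 rises were called in both models.

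Among the falls, IQGAP2, a scaffold protein of the cytoskeleton, lay at -2.14, -2.17 and -2.32 in HD and at -0.73, -0.98 and -1.07 in LD (-1.29 ± 0.21, adjusted p = 2.67e-04; with the block -0.72, adjusted p = 0.0216). NRCAM, a neuronal cell adhesion molecule, differed by -1.24 ± 0.22 (adjusted p = 4.25e-04; with the block -0.53, adjusted p = 0.0435). UGT1A9, an enzyme of glucuronidation, lay at -5.15, -4.84 and -4.69 in HD and at -3.48, -3.90 and -3.88 in LD (-1.14 ± 0.27, adjusted p = 0.00264), but its controls had a plate difference of -0.92, and with the block it was at -0.22 (adjusted p = 0.545). SEMA3E, a secreted semaphorin, was uneven in HD at -4.38, -5.99 and -3.87, against -3.43, -3.62 and -3.51 in LD. Its difference was -1.23 ± 0.40 (adjusted p = 0.0168), and -0.68 with the block (adjusted p = 0.449). In a limma fit of the HD and LD samples only it was not called (adjusted p = 0.058).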
